A study of Mus musculus with 6 samples.

Results

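Cyclic nucleotide phosphodiesterases (PDEs) are the enzymes that break down the second messengers cAMP and cGMP, and so set how long and how far these signals last in a neuron. Adenylyl and guanylyl cyclases make the messengers, and protein kinases, exchange factors and cyclic nucleotide gated channels read them. Opioid receptors couple to inhibitory G proteins that restrain adenylyl cyclase, which places this family beside opioid signalling in the brain. The 10 PDE genes described here are the calcium and calmodulin dependent Pde1a and Pde1b, the cGMP-stimulated Pde2a and the striatum-rich Pde10a, which hydrolyse both messengers, the cAMP-specific Pde4a, Pde4b, Pde4d, Pde7b and Pde8b, and the cGMP-specific Pde9a. They were chosen by gene name from the 31763 genes of the deposited table, with earlier results of the same libraries in view, so their differences between groups are given as a description and not as independent evidence.

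RNA was taken from the medial prefrontal cortex (mPFC) of male C57BL/6J mice in a conditioned place preference (CPP) experiment, in which an animal learns to link a chamber with a drug. The morphine group (3 libraries) was trained with morphine at 10 mg/kg and the saline group (3 libraries) with saline at 10 ml/kg, both by intraperitoneal injection, and tissue was collected after drug-free days in the home cage and a final preference test. No transgene is named for either group, and the sources used here do not say whether a library is 1 mouse or a pool. The p-values therefore set group differences against the variation between these libraries, which may not be that between mice. Libraries were rRNA-depleted and directional, and held 17984153 to 23529592 counted reads.

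The saline 1 library stood apart from the other 5. The summed level of 13 olfactory bulb markers that passed the filter on low counts was 1262 CPM (counts scaled to library size) in saline 1, against 448.0 to 491.0 CPM in the other 5 libraries, and 12 of the 13 were over 2-fold higher there. Interneuron markers summed to 1133 CPM in saline 1 and to at most 773.4 CPM elsewhere. They were not raised as a group. Of these 12 genes, 4 were over 2-fold higher in saline 1, among them Gad1, whereas Pvalb, Lhx6, Vip and Cck were lowest there. Values that moved most with saline 1 are therefore given with and without it. The neuron markers expected of cortex were present in every library, with sums of 7644 to 8270 CPM in morphine and 7533 to 7814 CPM in saline. In bulk tissue, fewer cells of a type and less RNA per cell cannot be told apart.

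All 10 genes were detected in all 6 libraries and passed the filter of at least 10 counts in at least 3 libraries, as did 18970 genes in all. Levels between genes were read per length, from the FPKM of the authors' table (fragments scaled to exon length and library size). In every member but Pde9a, that length equals all annotated exon bases of the gene, and not the length of a single transcript. For Pde10a, with 14 transcripts, it is 12849 bases. The order and shares of the members are therefore per exon base and not per transcript. Pde1a was the highest member at 39.7 ± 1.68 FPKM (mean ± SD, n = 6 libraries), above 95.5% of the genes tested. Pde1b followed at 20.7 ± 0.858 FPKM. The 3 Pde4 genes, targets of the inhibitor rolipram, lay at 17.6 ± 0.666 FPKM for Pde4a, 14.4 ± 0.588 FPKM for Pde4b and 11.7 ± 0.785 FPKM for Pde4d. Pde8b, a cAMP-specific enzyme of high affinity, had 15.9 ± 1.51 FPKM.

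The lower end of the order was held by Pde10a at 8.79 ± 0.870 FPKM, Pde7b at 4.27 ± 0.410 FPKM, Pde9a at 3.04 ± 0.455 FPKM and Pde2a at 1.46 ± 0.557 FPKM, the last above only 30.8% of the genes tested. The level and rank of Pde2a are uncertain, because most of its exon bases are shared with another gene, as described below. Of the 9 steps between neighbours in this order, 6 had no overlap between the ranges of the 6 libraries. The ranges overlapped between Pde4a and Pde8b, between Pde8b and Pde4b, and between Pde7b and Pde9a. Pde4a was nevertheless above Pde8b in 6 of 6 libraries, whereas Pde8b was above Pde4b in 5 of 6 and Pde7b above Pde9a in 5 of 6, saline 1 being the exception in both cases.

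**Figure D1:**
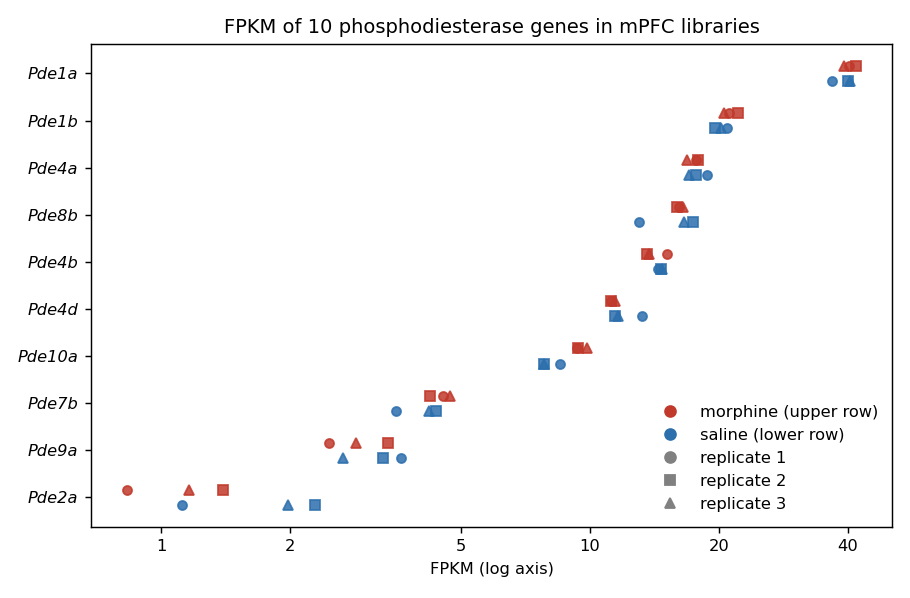
FPKM (log axis) of the 10 PDE genes, ordered by their mean over 6 libraries, with one point per library, morphine in the upper and saline in the lower row of each gene. Pde1a stands at 36.8 to 41.7 FPKM and Pde2a at 0.834 to 2.28 FPKM, and the Pde10a points of the 2 groups do not overlap.

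Together the 10 genes summed to 138.5, 140.9 and 136.8 FPKM in the morphine libraries, against 133.9, 138.6 and 137.3 FPKM in the saline libraries. They held 88.7% to 90.6% of the FPKM of all catalytic PDE genes measured. Enzymes that hydrolyse both messengers made up 52.1% ± 0.779 of the members' sum in morphine and 50.6% ± 0.603 in saline (SD, n = 3 each). cAMP-specific enzymes made up 45.8% ± 1.06 in morphine and 47.0% ± 0.286 in saline, and the cGMP-specific Pde9a 2.09% ± 0.308 in morphine and 2.34% ± 0.389 in saline. The lowest morphine share of the first class, 51.6%, was above the highest saline share, 51.3%, a distance smaller than the SD of either group. Pde10a and Pde1b, the 2 members whose CPM did not overlap between groups, belong to this class, so its share is not independent of them. Among all genes tested, 5.98% were higher in morphine without overlap in CPM. The shares were not tested. Pde2a, whose level is uncertain, belongs to the first class, so all these sums and shares carry that uncertainty.

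Differences between morphine and saline were read from edgeR's quasi-likelihood F test, a two-sided test fitted on the counts of all 18970 genes, with p-values adjusted over all of them by the Benjamini-Hochberg method. Fold changes are log2 values of morphine over saline, and levels per library are CPM normalized by TMM. At an adjusted p under 0.05, 0 of the 10 members were called, against a background of 0% of all genes tested, while DESeq2 called 16 genes and none of the members. At an unadjusted p under 0.05, 1 of the 10 was higher in morphine (background 2.77%) and 1 was lower (background 4.96%). Groups did not overlap in 2 members that were higher in morphine (background 5.98%) and in 0 members that were lower (background 7.32%). The median log2 fold change of the members was 0.028, with 5 positive and 5 negative values, beside -0.0093 over all genes tested. Without saline 1 these medians were -0.0032 for the members and 0.0049 for all genes.

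**Figure D2:**
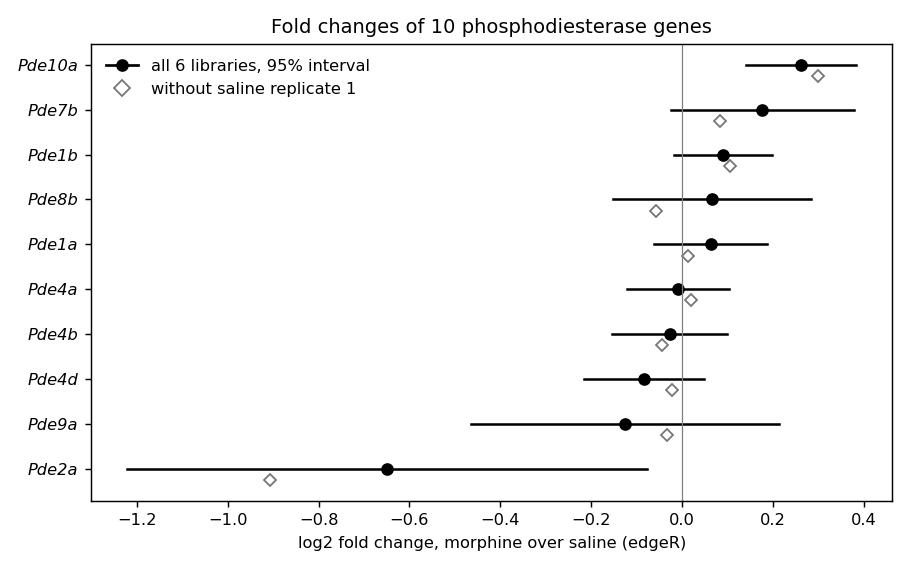
Log2 fold change of each PDE gene, morphine over saline, from edgeR (filled points with 95% intervals, 6 libraries) and without saline 1 (open diamonds). Pde10a (0.26) and Pde2a (-0.65) are the members whose intervals exclude 0, and Pde8b and Pde4a lie on the other side of 0 without saline 1.

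Pde10a was the member with the most even difference between the groups. The gene encodes a dual-specificity enzyme best known from striatal projection neurons and spans chr17:8525372-8986648 on the plus strand (mm10), with 14 annotated transcripts and no exon base shared with another gene. Its level was 121.3, 119.7 and 129.1 CPM in morphine libraries 1 to 3, against 107.8, 100.6 and 100.2 CPM in saline libraries 1 to 3. Every morphine library was above every saline library, and the lowest morphine value exceeded the highest saline value by more than the SD of either group (5.01 CPM in morphine and 4.26 CPM in saline). The log2 fold change was 0.26 (SE 0.055, 95% interval 0.14 to 0.38), a level 19.9% higher in morphine, and edgeR gave it an unadjusted p of 0.00067 and an adjusted p of 0.467. Counts of 1962 to 2982 per library give a counting error of at most 2.26%, so depth did not limit this value.

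Over 12 alternative ways of fitting the data (other normalizations and tools, no filter, a replicate term, each library left out), the log2 fold change of Pde10a stayed between 0.22 and 0.30 and its unadjusted p under 0.05. Its adjusted p was under 0.05 in 2 of the 12. It was 0.0072 without saline 1, at a log2 fold change of 0.30, where 0.996% of all genes were called, and 0.0172 with no filter on low counts, where 0.878% were called. In both of these fits Pde2a was the only other member called, which makes 2 of the 10.

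Markers of striatal projection neurons, where Pde10a is known to be abundant, were read beside it. Over the 13 tested, the median log2 fold change was 0.056. By the same unadjusted threshold 2 were higher (background 2.77%) and 1, Syndig1l, was lower (background 4.96%). Syndig1l had 0.774, 0.828 and 1.04 CPM in morphine libraries, against 4.66, 0.943 and 1.02 CPM in saline libraries, saline 1 alone being high. Without saline 1 the median of the 13 was 0.16, with 2 higher (background 4.14%) and 0 lower (background 7.53%). Their summed level was 437.9 to 442.0 CPM in morphine and 403.9 to 415.4 CPM in saline. With all libraries, 9 of the 13 had positive and 4 negative log2 fold changes. Groups did not overlap in 3 that were higher in morphine (background 5.98%) and in 0 that were lower (background 7.32%). Ppp1r1b, which encodes the dopamine and cAMP regulated phosphoprotein DARPP-32, had 49.3, 45.8 and 46.5 CPM in morphine libraries, against 30.5, 42.0 and 37.4 CPM in saline libraries. Rasd2, a striatum-rich small GTPase, had a log2 fold change of 0.26 (SE 0.077). The defining receptor genes had log2 fold changes of 0.056 for Drd1 (SE 0.11), 0.12 for Adora2a (SE 0.29) and -0.57 for Drd2 (SE 0.36). Ido1 and Six3 had at most 8 and 2 counts in any library. The part of these markers in the Pde10a difference was not tested.

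**Figure D3:**
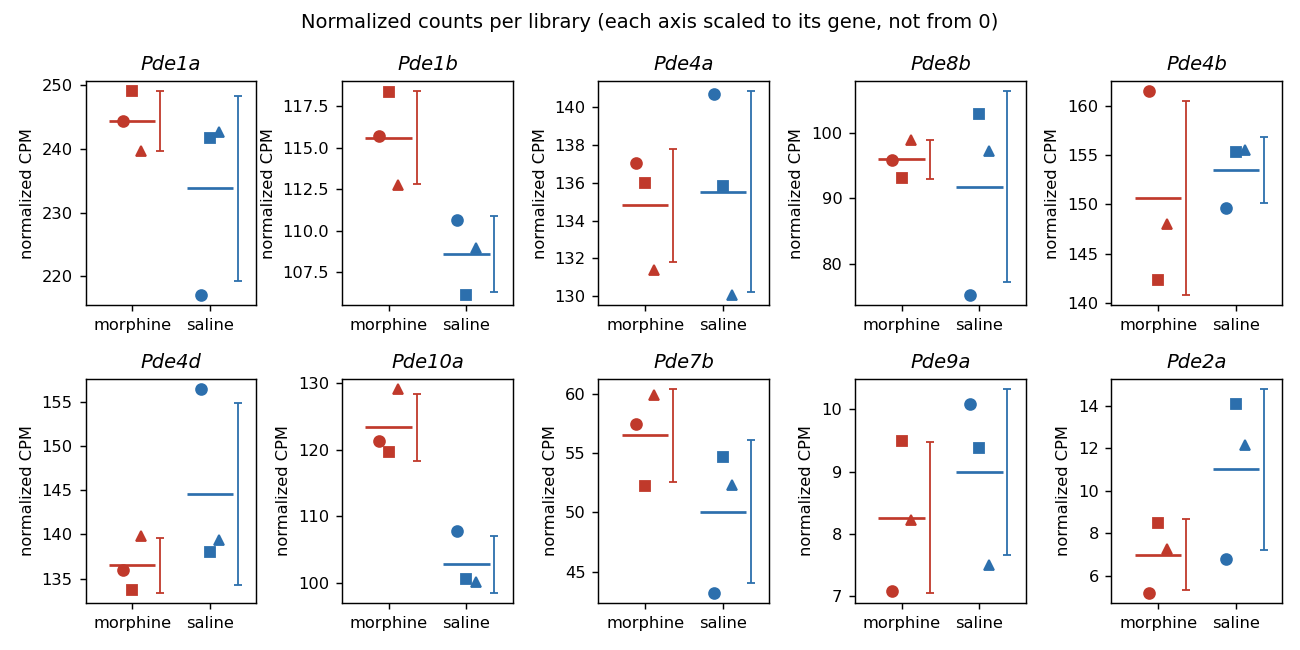
Normalized CPM of each PDE gene per library, morphine left and saline right, with the group mean (line), the SD (bar at the side, n = 3) and replicates 1, 2 and 3 as circle, square and triangle. Axes are scaled to each gene and do not start at 0. Groups separate in Pde10a (119.7 to 129.1 against 100.2 to 107.8 CPM) and Pde1b (112.7 to 118.4 against 106.1 to 110.6 CPM), and saline 1 is the lowest point in Pde1a, Pde7b and Pde8b.

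Pde1a and Pde1b encode enzymes that calcium and calmodulin switch on, which ties cyclic nucleotide breakdown to neuronal activity. Pde1b (chr15:103503034-103530052, plus strand) had 115.7, 118.4 and 112.7 CPM in morphine, against 110.6, 106.1 and 109.0 CPM in saline. The groups did not overlap, but the distance between the closest values was smaller than the SD of either group (2.81 CPM in morphine and 2.28 CPM in saline). Its log2 fold change was 0.090 (SE 0.049, 95% interval -0.018 to 0.20). Pde1a (chr2:79834453-80129458, minus strand) had 244.4, 249.1 and 239.6 CPM in morphine, against 217.1, 241.7 and 242.7 CPM in saline. Saline 1 was the low point, the other 5 libraries lay within 239.6 to 249.1 CPM, and the log2 fold change of 0.064 (SE 0.056) was 0.014 without saline 1.

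Pde2a had the lowest level and the widest spread. It encodes a dual-specificity enzyme that cGMP binding stimulates, so that a rise of cGMP can lower cAMP. Its level was 5.20, 8.50 and 7.27 CPM in morphine, against 6.77, 14.1 and 12.2 CPM in saline. Saline 1 lay inside the morphine range, so the groups overlapped. The log2 fold change was -0.65 (SE 0.26, 95% interval -1.22 to -0.078), and edgeR gave it an unadjusted p of 0.0297 and an adjusted p of 0.618. Without saline 1 it was -0.91, at an adjusted p of 0.0042 in edgeR. With no filter it was -0.65 (edgeR, adjusted p of 0.0254). The unadjusted p was under 0.05 in 6 of the 12 alternative fits. Counts of 94 to 299 give a counting error of up to 10.3%, below the spread between replicates of 23.9% in morphine and 34.5% in saline.

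The annotation limits what the Pde2a count can hold. The gene lies at chr7:101421691-101512827 on the plus strand, and 3955 of its 6149 exon bases, 64.3%, are also exon bases of Gm45837 on the same strand in GENCODE M21, a gene not analysed here. The 2194 bases of Pde2a alone fall into 11 segments. Only 184 of them are coding, and 1660 belong to retained-intron and processed transcripts alone. The deposited FPKM divides by all 6149 bases, and the sources used here do not give the handling of reads in shared bases, so the low Pde2a level is uncertain. The 2 coding stretches over 12 bases that belong to Pde2a alone are the first coding bases of different transcripts, shown because a read there can be told from Gm45837, in 5′ to 3′ order on the plus strand of GRCm38 (the same build as mm10), with the start codon in capitals.
Pde2a-201, chr7:101421925-101421995: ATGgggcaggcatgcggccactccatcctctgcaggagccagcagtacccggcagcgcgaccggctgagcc
Pde2a-204, chr7:101450628-101450728: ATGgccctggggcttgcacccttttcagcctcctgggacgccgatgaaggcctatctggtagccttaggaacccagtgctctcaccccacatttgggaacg

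**Figure D4:**
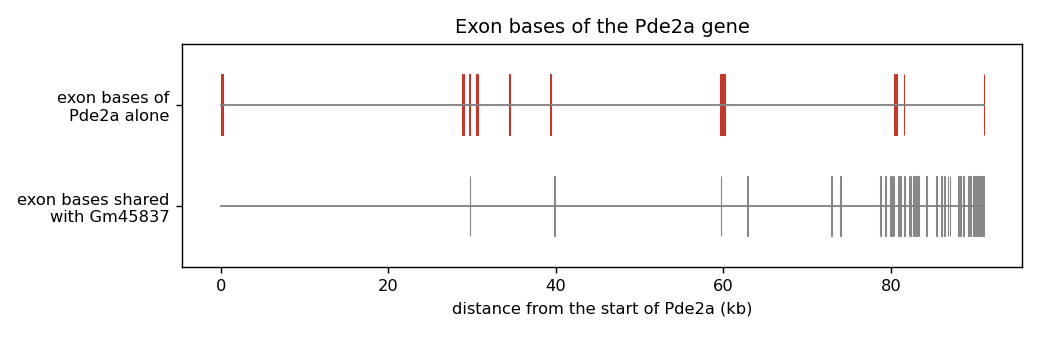
Exon bases of Pde2a by distance from its start (kb), with bases of Pde2a alone in the upper row and bases shared with Gm45837 in the lower row. The shared bases (3955) gather toward the end of the gene, and the unshared ones (2194) lie in 11 scattered segments.

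A class of 1918 genes annotated as TEC (transcripts still awaiting experimental proof) or sense intronic, which lie within introns, was read beside Pde2a. The median deviation of this class from its mean over the 6 libraries was -0.16, 0.069 and -0.23 on the log2 scale in morphine libraries 1 to 3, against -0.030, 0.17 and 0.22 in saline libraries 1 to 3. Pde2a itself deviated by -0.70, 0.0014 and -0.22 in the same morphine libraries, against -0.32, 0.73 and 0.51 in the saline libraries. In both measures saline 2 and saline 3 were highest, and morphine 1 and morphine 3 were below the mean. Saline 1 was below morphine 3 in Pde2a (-0.32 against -0.22) but above it in the class (-0.030 against -0.23). The median log2 fold change of the class was -0.24, while that of 14280 protein-coding genes was 0.0020. The part of this class's shift in the Pde2a difference was not tested.

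**Figure D5:**
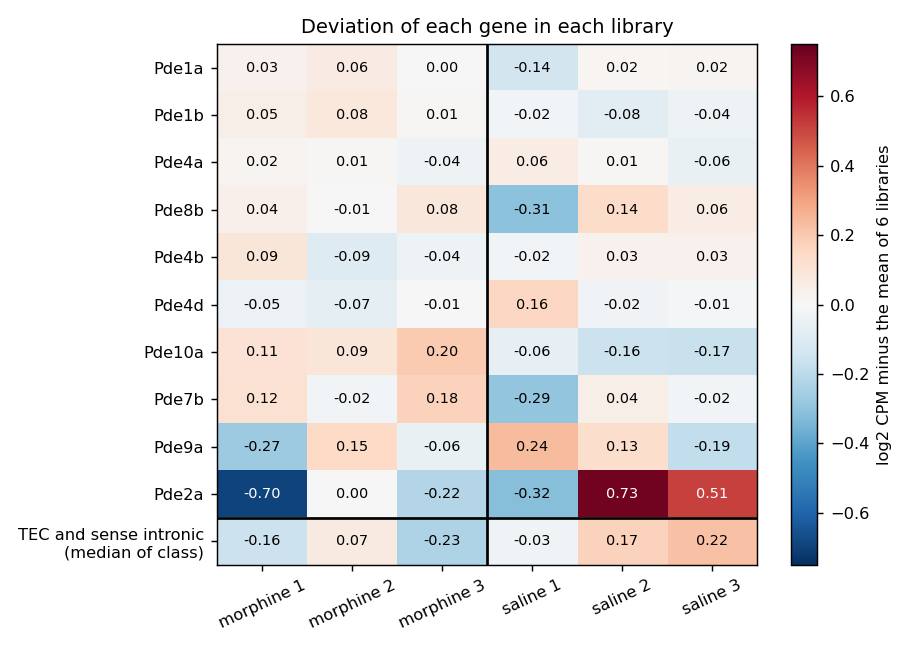
Deviation of each PDE gene in each library from its own mean over the 6 libraries (log2 CPM), morphine left and saline right, with the median of the TEC and sense intronic class in the bottom row. Pde2a spans -0.70 to 0.73, Pde7b and Pde8b are lowest in saline 1 (-0.29 and -0.31), and Pde9a spans -0.27 to 0.24.

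Among the rolipram-sensitive Pde4 genes, Pde4a and Pde4b had the smallest fold changes of the 10 members in size. Pde4a (chr9:21165714-21213248, plus strand) had 137.0, 136.0 and 131.4 CPM in morphine, against 140.7, 135.9 and 130.1 CPM in saline, a log2 fold change of -0.0082 (SE 0.051, 95% interval -0.12 to 0.10) that was 0.021 without saline 1. Pde4b (chr4:102087543-102607259, plus strand), an abundant cortical form linked to immune signalling as well, had 161.5, 142.4 and 148.1 CPM in morphine, against 149.6, 155.3 and 155.5 CPM in saline. The saline values lay inside the morphine range, and the log2 fold change was -0.027 (SE 0.057, 95% interval -0.15 to 0.10). Pde4d (chr13:108449948-109953461, plus strand), which has 20 annotated transcripts, had 135.9, 133.7 and 139.8 CPM in morphine, against 156.4, 138.0 and 139.4 CPM in saline. Saline 1 was the high point, and the log2 fold change of -0.083 (SE 0.059) was -0.021 without it. A p above the threshold does not show that these genes were alike in the 2 groups.

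Of the other cAMP-specific enzymes, Pde7b (chr10:20398004-20725078, minus strand), which rolipram does not inhibit, had 57.4, 52.2 and 59.9 CPM in morphine, against 43.2, 54.6 and 52.3 CPM in saline. The groups overlapped, with saline 1 the lowest of all, and the log2 fold change of 0.18 (SE 0.091) was 0.083 without saline 1. Its unadjusted p was under 0.05 in 3 of the 12 alternative fits. Pde8b (chr13:95024454-95250336, minus strand) had 95.9, 93.0 and 98.9 CPM in morphine, against 75.3, 102.8 and 97.2 CPM in saline. Its log2 fold change of 0.066 (SE 0.098) turned to -0.058 without saline 1, so its direction rests on that library. Of its exon bases, 7.60% are shared with Gm48420 on the opposite strand.

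Pde9a, the cGMP-specific enzyme of highest affinity in the family (chr17:31386210-31476310, plus strand), had 7.08, 9.49 and 8.22 CPM in morphine, against 10.1, 9.38 and 7.51 CPM in saline. The groups overlapped, and the log2 fold change was -0.12 (SE 0.15, 95% interval -0.46 to 0.21). It was -0.033 without saline 1 and -0.027 without morphine 1, and -0.23 without morphine 2 and without saline 3. Its 128 to 234 counts give a counting error of up to 8.84%, against a spread between replicates of 14.6% in morphine and 14.8% in saline. The length its FPKM implies, 2834 bases, is shorter than the 3538 exon bases of GENCODE M21, so the authors' annotation of this gene differed from the one used here. Of its exon bases, 8.34% are shared with genes on the opposite strand.

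Promoters of the members were searched for the cAMP response element, the site that the cAMP-activated factor CREB binds, because several PDE genes are themselves known to respond to cAMP. The windows run from 250 bases before to 50 bases after each start in RefSeq (GRCm38.p6), and 28 windows of 9 members were matched, with none for Pde9a. The whole element TGACGTCA was in 0 of the 28, beside 1.79% of 32851 promoters. The short form, TGACG or its reverse CGTCA, was in 5 of the 28, 17.9%, beside 20.8% of all promoters, once each for Pde1a, Pde2a, Pde4a, Pde4b and Pde8b. A match is a description of letters and not a site. Upstream of the start the matches lay at -166 for Pde1a, -50 for Pde4a and -34 for Pde4b. The windows around those of Pde1a and Pde4a are shown as examples, and that of Pde4b is left out because it runs into an annotated exon. The short form is in capitals and each window is written 5′ to 3′ on the strand of its gene.
Pde1a, chr2:80039037-80039096, minus strand: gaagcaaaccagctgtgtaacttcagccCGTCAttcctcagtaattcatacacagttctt
Pde4a, chr9:21184023-21184082, plus strand: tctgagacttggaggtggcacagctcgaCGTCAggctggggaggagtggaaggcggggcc

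A further 14 PDE genes were read beside the members. Of the 10 that passed the filter, 0 had an unadjusted p under 0.05 in edgeR (background 2.77% higher and 4.96% lower). Of these 10, 2 had positive and 8 negative log2 fold changes, and their median was -0.094. Those with at least 1 FPKM in all 6 libraries were Pde3b, Pde5a, Pde7a and Pde8a among the enzymes, and Pde6d, a prenyl-binding partner that is no catalytic subunit. Pde7a, the closest relative of Pde7b, had 43.1 ± 1.11 CPM in morphine and 46.3 ± 3.28 CPM in saline (SD, n = 3 each), a log2 fold change of -0.10 (SE 0.068) where that of Pde7b was 0.18. Pde8a had 11.3 ± 1.38 CPM in morphine and 11.9 ± 1.26 CPM in saline, and the cGMP-inhibited Pde3b 24.5 ± 1.02 CPM in morphine and 26.8 ± 2.06 CPM in saline. The cGMP-specific Pde5a, target of sildenafil, had a log2 fold change of -0.069 (SE 0.13), and Pde6d one of -0.010 (SE 0.092). Differences between members and other PDE genes were not tested.

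The machinery around the PDEs was read from lists of genes for synthesis, effectors and anchors. Of 21 cyclases, receptors and synthases tested, the median log2 fold change was 0.025. By the unadjusted threshold of 0.05, 2 were higher (background 2.77%) and 2 lower (background 4.96%). Adcy9, a widespread adenylyl cyclase, had 155.6, 142.6 and 145.2 CPM in morphine, against 110.2, 138.4 and 135.5 CPM in saline. Adcy3 had 78.2, 81.8 and 82.6 CPM in morphine, against 67.8, 75.4 and 76.3 CPM in saline. In both, every morphine library was above every saline library, and saline 1 was lowest. Such a separation was found in 2 of the 21 (background 5.98%). Adcy8, a calcium-stimulated cyclase, had 25.4, 24.1 and 31.0 CPM in morphine, against 50.6, 28.2 and 31.7 CPM in saline, and Npr1, the natriuretic peptide receptor that makes cGMP, named here after its values were seen, had at most 2.32 CPM in any library but saline 1, where it had 13.4 CPM. Without saline 1, 0 of the 21 were higher (background 4.14%) and 0 lower (background 7.53%).

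Of 23 effectors tested, the median log2 fold change was -0.0058, with 0 higher (background 2.77%) and 2 lower (background 4.96%). Hcn4, a cyclic nucleotide gated pacemaker channel, had 9.01, 8.72 and 10.9 CPM in morphine, against 24.8, 10.4 and 11.4 CPM in saline. Hcn3 had 15.5, 16.1 and 14.9 CPM in morphine, against 19.0, 17.2 and 17.6 CPM in saline. Prkar1b, the neuronal regulatory subunit of protein kinase A, had a log2 fold change of 0.17 (SE 0.075) and missed that threshold. Without saline 1 the list held 1 higher (background 4.14%) and 0 lower (background 7.53%) of 22 tested. Of 24 regulators and anchors, the median was 0.043, with 2 higher (background 2.77%) and 0 lower (background 4.96%). These were Ppp1r1b, also a striatal marker above, with a log2 fold change of 0.37 (SE 0.10), and Cdk5, a kinase that phosphorylates it. Cdk5 had 47.7, 50.3 and 46.1 CPM in morphine, against 41.5, 44.0 and 44.3 CPM in saline. Akap5, which anchors protein kinase A at synapses, had a log2 fold change of 0.13 (SE 0.071). The list of regulators and anchors had a median of 0.056 without saline 1, with 2 higher (background 4.14%) and 0 lower (background 7.53%) of 24 tested. Across these lists 0 genes passed the adjusted threshold in edgeR with all 6 libraries.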

How the data were processed

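Per the labels and the methods, mPFC RNA of 3 morphine and 3 saline samples was sequenced, and groups and replicate numbers were taken from the sample titles. For every gene and library the authors deposited a raw count, a whole number, and an FPKM, on mm10. The submitters' processing notes list HTSeq 0.11.2 and StringTie 1.3.3 beside the aligner HISAT2 2.1.0 and the trimmer cutadapt 1.9.3. Strand setting and overlap mode of the count were not given in the sources used here. Total counts were 17984153 to 23529592 per library, and counting errors cover counting only.

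The members and gene lists, and the rule for named genes (all members, other PDE genes of at least 1 FPKM in all 6 libraries, the 3 genes of lowest p in each pathway list and, for likeness, the 3 most similar genes of the 3 members with the widest range), were chosen with earlier results of these data known. Of the genes named for likeness, 1 is not reported here. A gene was kept if 3 or more libraries held 10 or more counts. After TMM normalization, morphine was set against saline with edgeR 4.0.16 (R 4.3.3) and its quasi-likelihood F test. Alternatives were RLE factors, DESeq2 1.42.0, no filter, limma 3.58.1 on log2(FPKM + 0.1) and log2(FPKM + 1), the replicate number as a block, and each library left out. The fit was also run on counts simulated from its own means and dispersions. That check held no outlying library, so it cannot speak to the weight of saline 1. Replicate pairs differed by 2.91 to 14.7 times their degrees of freedom in a chi-square test of counts, so none is a duplicate. Annotation was GENCODE M21, to which 31748 of 31763 gene identifiers matched.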

Additional observations from a re-analysis of the deposited data

How the results depend on the processing

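Depth limited Pde2a and Pde9a most, with counting errors of up to 10.3% and 8.84%. The replicate numbers showed no pairing over 18970 genes, where same-numbered deviations correlated at 0.015, 0.0013 and -0.021. Not every library correlated best with its own number. With 3 libraries in each group, this check cannot exclude a pairing. With the replicate block, Pde10a had a log2 fold change of 0.26 with an adjusted p of 0.708 in edgeR, Pde2a one of -0.63 with an adjusted p of 0.708, and 0 genes were called. The block lowered the SE of Pde2a from 0.26 to 0.13 and its unadjusted p in edgeR from 0.0297 to 0.0013. Of 270 values recomputed under the alternatives, 224 stayed the same, 38 moved, 4 became called and 4 reversed. A fold change stayed the same if it kept its direction and its side of the threshold. For a median or share the rule was to stay within the spread between replicates. For a count of genes it was to stay within a set ratio of the main count. By that rule 380 genes higher at an unadjusted p under 0.05 in DESeq2 counted as the same as 525 in edgeR. The cause of each change was not tested beyond what the alternative changes by construction.

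At an adjusted p under 0.05, DESeq2 called 16 genes, no filter called 279, and leaving out 1 library gave 0 to 186, against 0 in edgeR. At an unadjusted p under 0.05, genes higher in morphine numbered 861 with no filter and 250 to 773 with 1 library left out (525 with all), and genes lower numbered 594 in DESeq2, 1638 with no filter and 442 to 1406 with 1 library left out (940 with all). Members called numbered 2 with no filter and 0 to 2 with 1 library left out. Members higher at an unadjusted p under 0.05 numbered 2 with no filter and 1 to 2 with 1 library left out, and members lower numbered 0 in limma on log2(FPKM + 0.1), 0 in limma on log2(FPKM + 1) and 0 to 1 with 1 library left out. Of the other PDE genes, 2 were lower with no filter, and 0 to 1 were higher and 0 to 2 lower with 1 library left out.

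With no filter, the log2 fold change was 0.27 for Pde10a and -0.65 for Pde2a, both called, and with 1 library left out it ranged between 0.23 and 0.30 for Pde10a and between -0.91 and -0.43 for Pde2a. Small fold changes reversed with 1 library left out. Pde4a was at 0.010 without morphine 3 and 0.021 without saline 1 (range -0.032 to 0.021), Pde4b at 0.012 without morphine 2 (range -0.080 to 0.012) and Pde8b at -0.058 without saline 1 (range -0.058 to 0.16). The members' median ranged between -0.0032 and 0.041.

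Summed over all catalytic PDE genes, cAMP-specific enzymes held 46.9% in morphine and 48.1% in saline, cGMP-specific ones 3.23% in morphine and 3.52% in saline, and those for both messengers 49.8% in morphine and 48.4% in saline. The uncertain Pde2a level enters these shares too. In CPM, which does not correct for length, the cAMP-specific share was 53.5% in morphine and 55.3% in saline, the cGMP-specific share 0.771% in morphine and 0.865% in saline, and the share for both 45.7% in morphine and 43.8% in saline.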

Other observations

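The genes whose profile over the 6 libraries was most like that of the 3 members with the widest range were named by the root mean square difference of their log2 CPM, each centred on its own mean, among 14107 genes compared. For Pde2a these were Rnf148 (0.13), Akap2 (0.19) and AC133488.1 (0.19). For Pde9a they were Nupr1 (0.022), Dock2 (0.028) and Pfkfb4 (0.051). For Pde7b, Mgll, the lipase that breaks down the endocannabinoid 2-AG (0.0086), and Igfbp6 (0.013) were the closest. With 6 libraries this likeness is a description only.

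In 2 further PDE genes, singled out after their values were seen, saline 1 was far above the rest. Pde1c, the third calmodulin-dependent gene, had 0.443, 0.449 and 0.366 FPKM in morphine, against 1.07, 0.344 and 0.334 FPKM in saline. Pde3a, a cGMP-inhibited enzyme, had 0.390, 0.332 and 0.307 FPKM in morphine, against 0.982, 0.207 and 0.341 FPKM in saline. Saline 1 is the library with the high olfactory bulb markers, whose part in these values was not tested.

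Other cell type lists were read by their summed levels. Oligodendrocyte markers summed to 1437 to 1757 CPM in morphine and 1257 to 1660 CPM in saline, astrocyte markers to 7064 to 7745 CPM in morphine and 6724 to 7333 CPM in saline, and microglia markers to 299.7 to 330.2 CPM in morphine and 298.9 to 314.9 CPM in saline. Endothelial and mural markers summed to 292.6 to 331.6 CPM in morphine and 286.9 to 304.4 CPM in saline, upper layer markers to 1352 to 1553 CPM in morphine and 1169 to 1467 CPM in saline, and deep layer markers to 590.9 to 627.3 CPM in morphine and 548.9 to 689.8 CPM in saline. The highest deep layer sum in saline was that of saline 1, and the other saline sums, 548.9 and 586.2 CPM, lay below every morphine sum. All 11 oligodendrocyte markers had positive log2 fold changes, with a median of 0.11. In edgeR 1 was higher at an unadjusted p under 0.05 (background 2.77%). Without saline 1 the median was 0.19 with 6 higher (background 4.14%). Deep layer markers had a median of -0.0069 with 0 higher, and without saline 1 a median of 0.13 with 3 of 12 higher (background 4.14%). Immediate early genes, which neuronal activity induces, summed to 885.0 to 897.2 CPM in morphine and 916.8 to 1094 CPM in saline. Of the 20 genes, 2 were higher (background 2.77%) and 8 lower (background 4.96%) by the unadjusted threshold of 0.05. Without saline 1, 2 were higher (background 4.14%) and 9 lower (background 7.53%).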
